A study of Mus musculus with 10 samples.

Results

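The comparison described here is that of regulatory T cells from mice heterozygous for an SHP-1 knockout (he) with those from wild type mice (WT), over all genes on the array. It uses every array whose title gives 1 of these genotypes, 3 he and 4 WT, which is 7 of the 10 arrays of the study. The other 3 arrays came from homozygous mice (me, the motheaten phenotype) and are left out of the main test. They were normalised together with the 7 and entered some of the alternative fits. Their values are shown for Ptpn6, the gene that encodes SHP-1, and for Klrb1b and Jchain. All mice were BALB/c and 17 to 19 days old. Cells of the CD4+CD25+ phenotype were taken from pooled lymph nodes with a regulatory T cell isolation kit and were neither treated nor cultured, and RNA was amplified from 20 ng of total RNA before hybridisation to Affymetrix arrays. The labels call the allele a knockout and name no tissue-restricted deletion, so the cells around the he T cells were heterozygous as well. Arrays are labelled as biological replicates without a statement of how many animals each one used, so p-values measure only the spread between these arrays.

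SHP-1 is a cytoplasmic tyrosine phosphatase of blood cells. It is recruited through its SH2 domains to inhibitory receptors that carry phosphorylated tyrosine motifs, and it removes phosphate from kinases and adaptors that act downstream of the T cell receptor and of cytokine receptors. Mice without it develop a severe inflammatory disease, whereas heterozygous mice are generally described as outwardly healthy. Regulatory T cells, which are marked by the transcription factor Foxp3 and by high CD25 (Il2ra), restrain other T cells.

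The 7 arrays formed 2 sets by their array-to-array correlation, set A with WT 1, WT 2 and he 1, and set B with WT 3, WT 4, he 2 and he 3. The correlation of 2 arrays over all probe sets was 0.970 to 0.996 within a set and 0.854 to 0.903 between sets. The labels name no batch, so the sets are given here only as 2 groups of arrays that differ. The limma fits below take set into account, and set A holds 1 he array. X- and Y-linked transcripts showed a male pattern in WT 2 and WT 4 and a female pattern in WT 1, WT 3 and all 3 he arrays, so sex differed between the groups as well. The ratio of the 3' to the 5' Gapdh probe set, a sign of RNA length after amplification, was 7.84 to 9.53 in WT and 7.88 to 9.71 in he. Within set B the arrays he 2 and he 3 were the least alike pair, with a correlation of 0.970 against 0.984 for WT 3 and WT 4. The array he 2 also stood apart by its interferon-response genes.

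Ptpn6 was lower in every he array than in every WT array at both of its probe sets. At the brighter probe set the level, as log2(intensity + 32) after quantile normalisation, was 9.55, 9.63, 9.83 and 9.81 in WT 1 to WT 4 and 9.30, 9.33 and 9.54 in he 1 to he 3. The groups did not overlap, all 12 pairs of a he and a WT array having the lower value in he, and the 3 me arrays lay below both at 8.84, 9.08 and 9.05. The difference of he from WT was -0.35 ± 0.07 (SE of the limma fit, as for every difference below, n = 3 and 4), which is 78.6% of the WT level of intensity + 32, with a 95% confidence interval of 70.5% to 87.6%. At the dimmer probe set the levels were 9.22, 9.08, 9.62 and 9.13 in WT and 8.75, 8.71 and 8.98 in he, and 8.05, 8.31 and 8.17 in me. There too all 12 pairs were lower in he, by -0.48 ± 0.13, or 71.9% of WT with an interval of 57.8% to 89.3%.

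The difference at Ptpn6 had the same sign in both array sets. It was -0.29 in set A and -0.39 in set B at the brighter probe set, and -0.40 and -0.53 at the dimmer one. By p-value the brighter probe set ranked 4 of 45037 and the dimmer 76, with unadjusted limma p-values of 0.00130 and 0.00908, and neither passed after Benjamini-Hochberg adjustment (limma adjusted p = 1.00 for both). A 2-sided exact permutation of the 7 arrays, which takes no account of set, gave p = 0.0571 at each, the smallest that 3 against 4 arrays allow. The brighter probe set is of a type whose probes can bind similar transcripts, and both understate a fold because 32 is added to the intensity. The gene lies at chr6:124720707-124738709 in GRCm38.p6 of mouse.

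**Figure D1:**
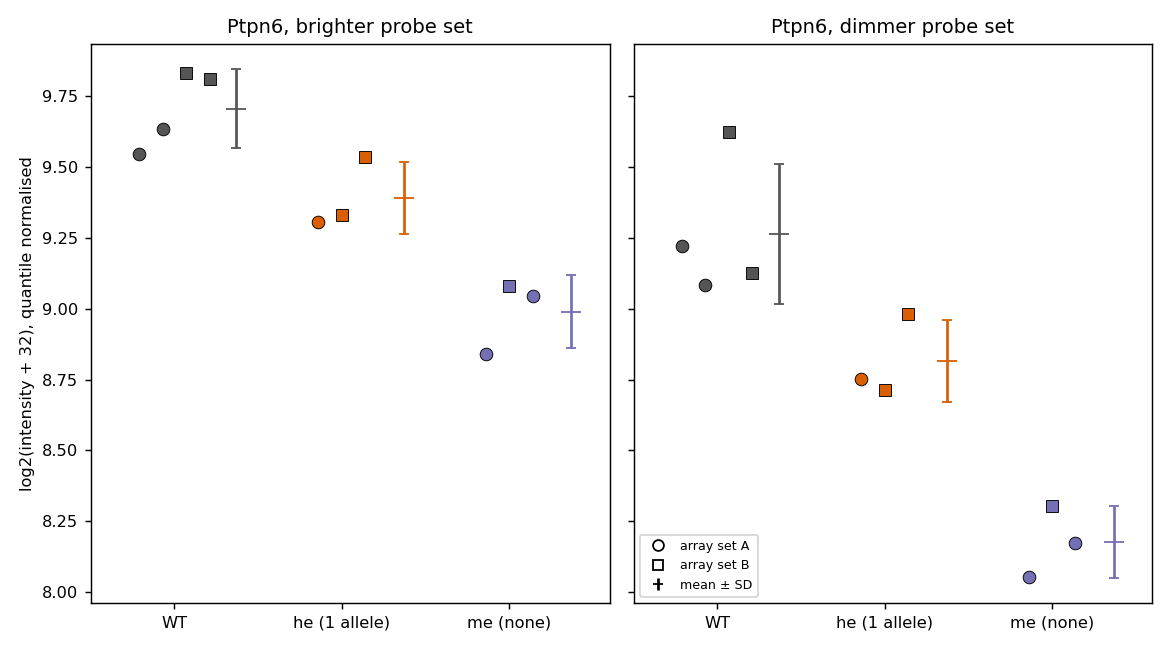
Level of Ptpn6 on each array, as log2(intensity + 32) after quantile normalisation, at its brighter (left) and dimmer (right) probe set, for WT (4 arrays), he (3) and me (3); circles are arrays of set A, squares of set B, and the bars give mean ± SD. At the brighter probe set the he arrays sit between 9.30 and 9.54, below all WT arrays (9.55 and above) and above all me arrays (9.08 and below).

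No probe set differed between he and WT at an adjusted p under 0.05 (limma, 0 of 45037 tested, 0%). At an unadjusted p under 0.05 there were 819 probe sets (1.82%), 324 higher in he (0.719%) and 495 lower (1.1%). Every he array lay above both WT arrays of its own set at 1514 probe sets (3.36%) and below both at 2216 (4.92%), and at 469 (1.04%) the groups did not overlap over the sets together. The differences were small: their 5th to 95th percentile ran from -0.12 to 0.13 on the log2 scale. Only 6 probe sets had an estimated difference over 2-fold, and these were 3 for Xist, 1 for the Y-linked gene Eif2s3y, 1 without a gene name and 1 for Ifit1, an interferon-induced gene. None of the 6 had a p under 0.12.

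What the 7 arrays could have shown was measured with changes of known size added to simulated arrays with the same spread. Of 50 probe sets each, 1 with a log2 change of 0.25, 39 with 0.5 and 50 with 1 were called, and so were 10 unchanged ones. The simulation held many changed probe sets, which eases the adjusted threshold. A lone change meets a stricter one, so these counts need not hold for it. The 95% confidence interval of a difference had a median half-width of 0.16 over all probe sets and of 0.21 over those at or above the median level. The estimates at Ptpn6, -0.35 and -0.48, lie in size between the 0.25 and 0.5 simulated, and neither passed adjustment. Single arrays of 1 genotype differed too: he 3 differed from he 2 by over 2-fold at 98 probe sets upward and 173 downward, WT 4 from WT 3 at 58 and 30, and WT 2 from WT 1 at 12 and 5.

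The he against WT differences of the 2 sets, which share no array, were close to unrelated. Across 45037 probe sets their Pearson correlation was 0.07 and Spearman's rho 0.016, and across the 22519 at or above the median level they were 0.10 and 0.045. These are correlations across probe sets, which are not independent, and are given as a description. The difference between the sets did not pass the interaction test at any probe set (limma adjusted p, 0 of 45037, 0%), and 425 had an unadjusted interaction p under 0.05 (0.944%). Within set B the differences of he 2 from WT 3 and of he 3 from WT 4 ran against each other (r = -0.31), and so did those of he 2 from WT 4 and of he 3 from WT 3 (r = -0.41). The arrays he 1 and he 2, each set against the WT mean of its own set, had r = 0.27, and he 1 and he 3 had r = -0.14.

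**Figure D2:**
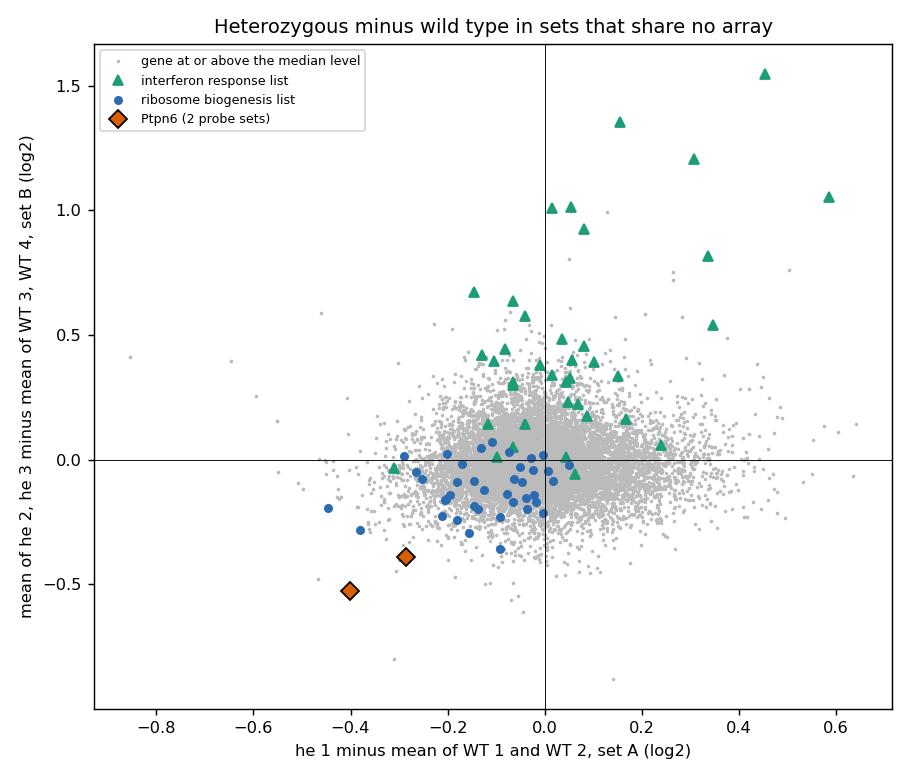
Difference of he from WT within set A (x axis) against that within set B (y axis), both log2, for each gene at or above the median level (grey), with the ribosome biogenesis list (blue circles), the interferon response list (green triangles) and the 2 Ptpn6 probe sets (orange diamonds); sex-linked genes are left out. Ptpn6 lies at -0.29 and -0.39, and at -0.40 and -0.53, in the lower left, while the cloud as a whole shows next to no slope (r = 0.10 in the brighter part of the array).

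The probe sets with the smallest p-values among those with each he array on 1 side of both WT arrays of its set are described next, 12 lower and 12 higher. None passed the adjusted threshold, and they were chosen by their p and by this separation, so that neither is evidence for them. Of 11395 eligible genes, 644 were separated downward and 175 upward. Ptpn6 was the first of the lower ones. Behind it came Tomm70a, a receptor for protein import on the outer mitochondrial membrane, with levels of 10.69, 10.77, 10.48 and 10.56 in WT 1 to WT 4 and 10.51, 10.29 and 10.23 in he 1 to he 3. Its difference was -0.24 ± 0.05, close to equal in set A (-0.23) and set B (-0.26), and the array he 1 lay within the range of the WT arrays of the other set. Chchd4, which drives oxidative import into the space between the mitochondrial membranes, had levels of 8.69, 8.83, 8.26 and 8.30 in WT and 8.50, 8.003 and 8.06 in he, a difference of -0.26 ± 0.05. Psmd12, a subunit of the proteasome lid, was at 10.50, 10.58, 10.58 and 10.59 in WT and 10.35, 10.30 and 10.35 in he. Here the groups did not overlap even across sets, and the difference was -0.23 ± 0.05.

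Utp4 and Noc3l, both nucleolar proteins that act in making ribosomal subunits, were lower by similar amounts. Noc3l was at 8.26, 8.38, 8.31 and 8.37 in WT and 8.11, 8.13 and 8.09 in he, with no overlap and a difference of -0.22 ± 0.05. Utp4 was at 9.25, 9.40, 8.97 and 8.88 in WT and 9.08, 8.70 and 8.61 in he (-0.26 ± 0.06). The others on the lower side were Drg1, a GTPase bound to ribosomes (-0.20), Lsm12, an RNA-binding protein of the Sm-like family (-0.21), Pdgfa, a chain of platelet-derived growth factor (-0.24), Seh1l, a member of the nuclear pore and of a nutrient-sensing complex (-0.27), Wscd2 (-0.19) and Csnk2a1, a catalytic subunit of casein kinase 2 (-0.19). All 12 had unadjusted limma p-values between 0.00130 and 0.00636. Where these genes had further probe sets the agreement was partial: all 5 of Tomm70a and all 3 of Lsm12 were lower, but Drg1 had 1 at 0.07 and Csnk2a1 ranged up to 6.0e-05.

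On the higher side the largest estimate was that of Klrb1b, a lectin-like inhibitory receptor of the NKR-P1 family. Its levels were 8.28, 8.24, 9.01 and 9.12 in WT 1 to WT 4, 8.54, 9.83 and 9.45 in he 1 to he 3, and 9.01, 10.42 and 8.76 in me 1 to me 3. Each he array was above both WT arrays of its set, by 0.28 in he 1, 0.77 in he 2 and 0.38 in he 3, and the difference of he from WT was 0.46 ± 0.11. All 5 of its probe sets were higher in he, the other 4 by 0.0087 to 0.33. Ppp3ca, the catalytic subunit of calcineurin, which acts between calcium and NFAT below the T cell receptor, was at 9.20, 9.16, 9.05 and 9.28 in WT and at 9.47, 9.40 and 9.43 in he. The groups did not overlap and the difference was 0.26 ± 0.07, while its other probe sets gave only 0.012 and 0.069. Itgb7, the beta chain of gut-homing integrins, was at 11.82, 11.77, 11.53 and 11.57 in WT and at 11.91, 11.73 and 11.78 in he (0.17 ± 0.05), separated within the sets and overlapping across them.

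The other 9 higher genes had differences of 0.19 to 0.43. Among them were Gm6958 (0.43) and E330020D12Rik (0.35), A730020M07Rik (0.33), the receptor Gpr146 (0.28), Plekha2, an adaptor that binds phosphoinositides (0.20), Mterf2, of the mitochondrial transcription termination family (0.20), Rps4l, a close relative of the ribosomal protein Rps4x (0.20), and Cbll1, a ubiquitin ligase (0.19). The unadjusted limma p-values of the 12 ran from 0.00231 to 0.0108. Signals of Rps4l and Gm6958 are uncertain, since probes for genes with close copies can bind the copies too. A730020M07Rik differed more in set B (0.49) than in set A (0.09), with an unadjusted interaction p of 0.023 that did not pass adjustment (limma). Its other probe set was at -0.017, and those of Plekha2 were at -0.034 and 0.061. Further probe sets of Gm6958, Gpr146 and Cbll1 were higher in he.

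**Figure D3:**
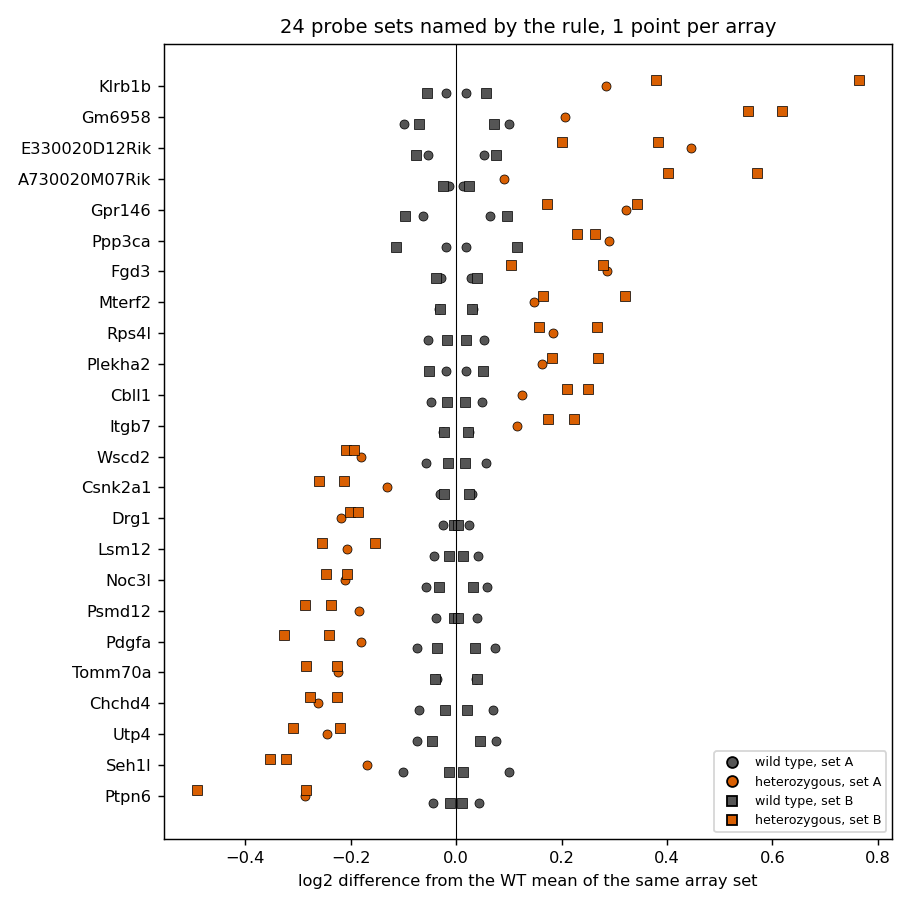
Log2 difference of each array from the mean of the WT arrays of its own set, for the 24 probe sets named by the rule (12 lower and 12 higher in he); grey points are WT, orange points he, circles set A and squares set B. The genes were selected so that no orange point lies between the grey ones of its set; the he points of Klrb1b spread from 0.28 to 0.77 and those of Wscd2 lie together near its difference of -0.19.

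Genes that define regulatory T cells were measured at like levels in both groups. Foxp3 was at 10.60, 10.83, 11.30 and 11.41 in WT 1 to WT 4 and at 10.74, 11.34 and 11.45 in he 1 to he 3, a difference of 0.03 ± 0.07 with a 95% interval of -0.14 to 0.21. Il2ra differed by 0.08 ± 0.11 (interval -0.17 to 0.34) and Tnfrsf18, the receptor GITR, by -0.02 ± 0.05 (-0.14 to 0.11). These intervals leave out a 2-fold difference and do not show that the levels were equal. Ctla4, the inhibitory receptor that competes for costimulatory ligands, was at 11.46, 11.22, 10.18 and 11.09 in WT and at 11.56, 10.80 and 11.24 in he. The WT 3 value alone was low, the groups overlapped, and the difference was 0.32 ± 0.22. Ikzf2, the transcription factor Helios, differed by 0.18 ± 0.11 and Cd4 by -0.04 ± 0.10, and the sign at Foxp3, Il2ra, Tnfrsf18 and Cd4 depended on the scaling or on which arrays were used. Of the 26 measured genes of a Treg signature 14 were higher and 12 lower (15 lower with no normalisation between arrays), with a median of 0.029, and none had an unadjusted p under 0.05. Every he array was below its own WT arrays at 1 of the 26, beside 5.34% of all genes. That member was Nrp1, a surface receptor of thymus-derived regulatory T cells (-0.23 ± 0.11, and -0.14 without he 3). Its other probe sets gave -0.061 to 0.091.

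Among genes of the pathways in which SHP-1 acts, most differences were within the spread of the arrays. Of 36 T cell receptor signalling genes 24 were higher in he and 12 lower (median 0.036), where 47.2% of all 18193 genes were higher and the median was -0.0051, but with no normalisation between arrays 20 of the 36 were lower. None of the 36 had an unadjusted p under 0.05. Csk, the kinase that restrains Lck, was at 9.12, 9.35, 8.62 and 8.62 in WT and 8.98, 8.53 and 8.60 in he (-0.14 ± 0.07), and Sla, an adaptor that dampens receptor signalling, differed by 0.20 ± 0.14. The kinase Zap70 differed by -0.01 ± 0.09, the adaptor Lat by -0.09 ± 0.07 and the CD3 chain Cd3e by 0.03 ± 0.10. Without he 2 the split of this list turned to 17 higher and 19 lower, so that its direction rested on that array.

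Of 25 tyrosine phosphatases and related genes, Ptpn6 among them, 16 were lower and 9 higher, and Ptpn6 was the only one with an unadjusted p under 0.05. Ptpn11, which encodes the related phosphatase SHP-2, differed by -0.04 ± 0.08 and Ptpn22, another brake on T cell receptor signalling, by 0.13 ± 0.08. Of 23 receptors with inhibitory motifs 14 were higher (10 with no normalisation), and Klrb1b alone was under 0.05, as it was by selection. The receptor Pdcd1 differed by -0.02 ± 0.06 and Cd5 by 0.03 ± 0.06, while Btla was at 0.23 in he 1, 0.21 in he 2 and -0.45 in he 3 relative to its WT arrays. Of 34 genes of IL-2 receptor, JAK and STAT signalling 16 were higher and 18 lower (median -0.0020), and without he 2 the split was 13 to 21. Every he array was above its own WT arrays at 1 of the 34, beside 2.72% of all genes. That member was Ifngr1, the ligand-binding chain of the interferon gamma receptor (0.36 ± 0.15). It was at 9.79, 9.32, 10.26 and 9.93 in WT and 9.87, 10.67 and 10.30 in he. The feedback inhibitor Socs2 was at -0.12 ± 0.06.

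Ribosome biogenesis had the highest share of lower members among the 35 lists of pathway and marker genes on the 7 arrays. Without he 3 that of DNA replication and G1/S was higher (38 of 39 against 37 of 39), and with median centring that of ribosomal protein genes was just above it. Of its 39 measured genes, which act in transcription and processing of ribosomal RNA, 37 were lower in he and 2 higher, with a median of -0.115. Over all genes 52.8% were lower, and over the 11405 genes at or above the median level, where all 39 lie, 55.7% were lower with a median of -0.012. The list's median was lower in each he array relative to the WT arrays of its set, at -0.109 in he 1, -0.091 in he 2 and -0.140 in he 3, and 22 of the 39 genes were lower in all 3, as were 15.5% of all genes at or above the median level. All he arrays lay below both of their WT arrays at 12 of the 39. The same held at 644 of the 11405 genes at or above the median level and at 5.34% of all genes. In the lower direction 8 of the 39 had an unadjusted limma p under 0.05, beside 231 of the 11405 and 1.43% of all genes. No member passed adjustment.

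Those 8 genes cover several steps. Nolc1, a nucleolar chaperone of small nucleolar RNA particles, differed by -0.32 ± 0.13, and Ddx21, a helicase of ribosomal RNA synthesis, by -0.29 ± 0.12. Utp15 (-0.24 ± 0.07) and Wdr75 (-0.22 ± 0.06) belong to the early small-subunit processome, although the other probe set of Wdr75 was at 0.094, and Noc3l and Bop1 (-0.16 ± 0.06) to the making of the large subunit. Fbl, the methyltransferase fibrillarin (-0.17 ± 0.06), and Dkc1, the pseudouridine synthase dyskerin, modify ribosomal RNA. Dkc1 was at 10.23, 10.30, 10.21 and 10.23 in WT and at 10.12, 10.08 and 9.98 in he, without overlap, and its other probe sets were lower too. In contrast Npm1 (0.01 ± 0.06) and Ncl (-0.03 ± 0.09), abundant nucleolar proteins, were near 0.

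The WT arrays themselves differed in this list, WT 2 from WT 1 by a median of 0.144 and WT 4 from WT 3 by 0.025. The median for he 1 against WT 1 alone was -0.057 and against WT 2 -0.148. With female-pattern arrays alone the list median was -0.103 with 32 of 39 lower, and without he 2 it was -0.127 with 34 lower. When every probe set of a gene was averaged it was -0.074. Genes for the ribosomal proteins themselves, 43 measured, were lower at 33 with a median of only -0.022. Their split moved with the scaling, to 42 of 43 lower (median -0.149) with no normalisation between arrays, when 65.9% of all genes and 39 of 39 ribosome biogenesis genes were lower.

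Several other lists of growth and metabolism leaned lower, and less evenly. Of 30 genes of cholesterol and fatty acid synthesis 25 were lower (median -0.072), at -0.068 in he 1, -0.111 in he 2 and -0.052 in he 3. Scd2, a fatty acid desaturase, was at 10.78, 10.92, 10.93 and 10.78 in WT and at 10.73, 10.50 and 10.21 in he, with no overlap (-0.35 ± 0.11). Insig1, a sterol-regulated inhibitor of the pathway, differed by -0.29 ± 0.11 (-0.17 without he 3) and Sc5d, a sterol desaturase, by -0.22 ± 0.06. The other probe sets of Sc5d were at -0.018 and 0.029. The list median depended on which WT arrays were used. The male-pattern arrays WT 2 and WT 4 were the higher of each WT pair, by medians of 0.110 and 0.099. With female-pattern arrays alone 15 of 30 were lower with a median of -0.0015. Only WT 2 and WT 4 had the male pattern, so sex cannot be told apart from those arrays, and the cause was not tested. With sex as a covariate on all 7 arrays the median was -0.0028 and 17 were lower, whereas pseudocounts, scalings and blocks that took no account of sex gave medians of -0.129 to -0.054.

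Of 37 proteasome genes 26 were lower (median -0.060). Besides Psmd12 these included Psmc2, a base ATPase (-0.18 ± 0.07), and Psmd6, a lid subunit (-0.13 ± 0.06), each with its he arrays below both WT arrays of their sets. The other probe sets of Psmc2 were at -0.11 and 0.068. With no normalisation or with centring on the array median 36 of 37 were lower, and with female-pattern arrays alone the median was -0.024. Oxidative phosphorylation, with 36 of 52 lower (median -0.042, and 48 lower under those other scalings), was lower in he 1 (-0.076) and he 2 (-0.070) but not in he 3 (0.0013). Its members with the smallest p were the complex I subunits Ndufv1 (-0.25 ± 0.10), Ndufb2 (-0.18 ± 0.07) and Ndufa5 (-0.17 ± 0.07). The other probe sets of Ndufb2 were at -0.10 and 0.025. Of 30 heat shock and co-chaperone genes 22 were lower (median -0.052), with Hspa9, the mitochondrial Hsp70, at -0.14 ± 0.05. Only ribosome biogenesis and cholesterol synthesis had medians at least 0.05 from 0 with 1 sign in all 3 he arrays.

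The interferon response list gave the largest median on the higher side, and it rested on 1 array. Of 40 interferon-induced genes 37 were higher in he with a median of 0.214. Every he array was above its own WT arrays at 4 of the 40, beside 2.72% of all genes, and 3 had an unadjusted p under 0.05 in the higher direction, beside 0.539%. In he 2 the median was 0.621, 39 of 40 genes were above the WT mean and 15 were more than 2-fold above it, whereas the median was 0.046 in he 1 and 0.0055 in he 3 with no gene over 2-fold in either. Ifit1, which binds foreign RNA ends, was at 7.43, 7.52, 7.42 and 7.59 in WT 1 to WT 4, and at 7.93 in he 1, 10.63 in he 2 and 7.47 in he 3. Rsad2, the antiviral enzyme viperin, was at 7.40 to 7.95 in WT, at 10.12 in he 2 and at 8.06 and 7.69 in he 1 and he 3. Usp18, a protease that restrains the interferon receptor, was at 7.51 to 7.68 in WT, at 10.00 in he 2 and at 7.87 and 7.60 in the others. So he 2 lay apart from both other he arrays at each of these genes, and their he against WT differences, 1.11 ± 0.70 for Ifit1, were no larger than their error allows. Without he 2 they were 0.21 for Ifit1, 0.15 for Rsad2 and 0.16 for Usp18.

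Without he 2 the interferon list median was 0.040 with 25 of 40 higher, and within set A it was 0.046. A few members did not depend on he 2 alone: Oas1a, an RNA-sensing synthetase, was at 8.12, 8.16, 8.74 and 8.98 in WT and 8.29, 9.24 and 9.15 in he, each he array above its own WT arrays (0.26 ± 0.08). Without he 2 its difference was 0.22. Bst2, which tethers budding virus, was likewise above them in all 3 (0.16 ± 0.07), and so was Oasl2 (0.14 ± 0.07), with 0.14 and 0.11 without he 2. Parp9 was above them as well (0.30 ± 0.18), but without he 2 it was at 0.089. The factor Irf7 differed by 0.26 ± 0.10 and the sensor Dhx58 by 0.19 ± 0.07, but at least 1 he array of each fell among its WT arrays. None passed adjustment (limma). Mx1 was at 8.51 in WT 4 against 7.71 to 7.80 in the other WT arrays, so WT 4 was high at this gene too.

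**Figure D4:**
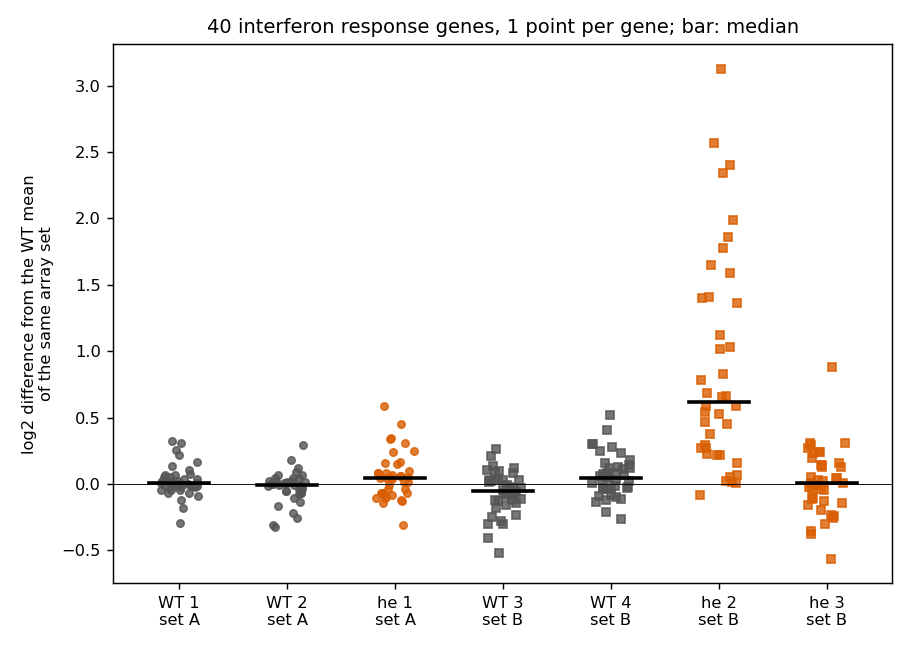
Log2 difference of 40 interferon response genes from the mean of the WT arrays of the same set, 1 point per gene, for each of the 7 arrays (grey WT, orange he; circles set A, squares set B), with the median as a bar. In he 2 the median is 0.621 and points reach 3.13 (Ifit1), while he 1 (0.046) and he 3 (0.0055) lie near the WT arrays.

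The arrays he 2 and he 3 stood at opposite ends of a further pattern, in which genes of resting T cells and genes of dividing cells had opposite signs. The 18 genes of naive and resting T cells had medians of 0.144 in he 1, 0.321 in he 2 and -0.521 in he 3. Satb1, a chromatin organiser of resting T cells, was at 10.63, 9.80, 11.43 and 10.24 in WT 1 to WT 4 and at 10.66, 11.75 and 9.92 in he 1 to he 3, so that he 2 was the highest and he 3 below both WT arrays of its set. Il7r, the receptor for the survival cytokine IL-7, was at 11.62, 11.38, 11.88 and 11.05 in WT and 11.96, 12.12 and 10.91 in he. WT arrays differed in this list as well, where WT 4 was below WT 3 by a median of -0.636 and WT 2 below WT 1 by -0.363. The GIMAP family of T cell survival GTPases followed it, with medians of 0.367 in he 2 and -0.270 in he 3. Without he 2 the he against WT medians were -0.127 for the naive list, against 0.030 with it, and -0.0082 for the GIMAP family, against 0.128.

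Genes of mitosis and G2/M, of which 24 of 39 were higher but only 10 with no normalisation, had the opposite signs by array, with medians of -0.289 in he 2 and 0.380 in he 3 and a WT 4 minus WT 3 median of 0.522. Mki67, the proliferation antigen, was at 12.45, 12.38, 12.07 and 12.59 in WT, at 12.39 in he 1 and 12.83 in he 3, and he 2, at -0.33 relative to the WT mean of set B, had the lowest of the 7 values. The lowest and the highest value were thus both he arrays of set B, and the difference of he from WT was 0.04 ± 0.21. Genes of DNA replication and G1/S were lower in he at 32 of 39 with a median of -0.049, and this came from he 2 (-0.268) and he 1 (-0.072) against he 3 (0.164). Rrm1, a subunit of ribonucleotide reductase, was at 10.33 in he 2 and 11.40 in he 3. Without he 2 the median turned to 0.034 with 10 of 39 lower. It was also 0.00046 without WT 4, 0.022 with sex as a covariate and 0.030 with female-pattern arrays alone. In all, 22 of the 35 lists had medians of opposite sign in he 2 and he 3.

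**Figure D5:**
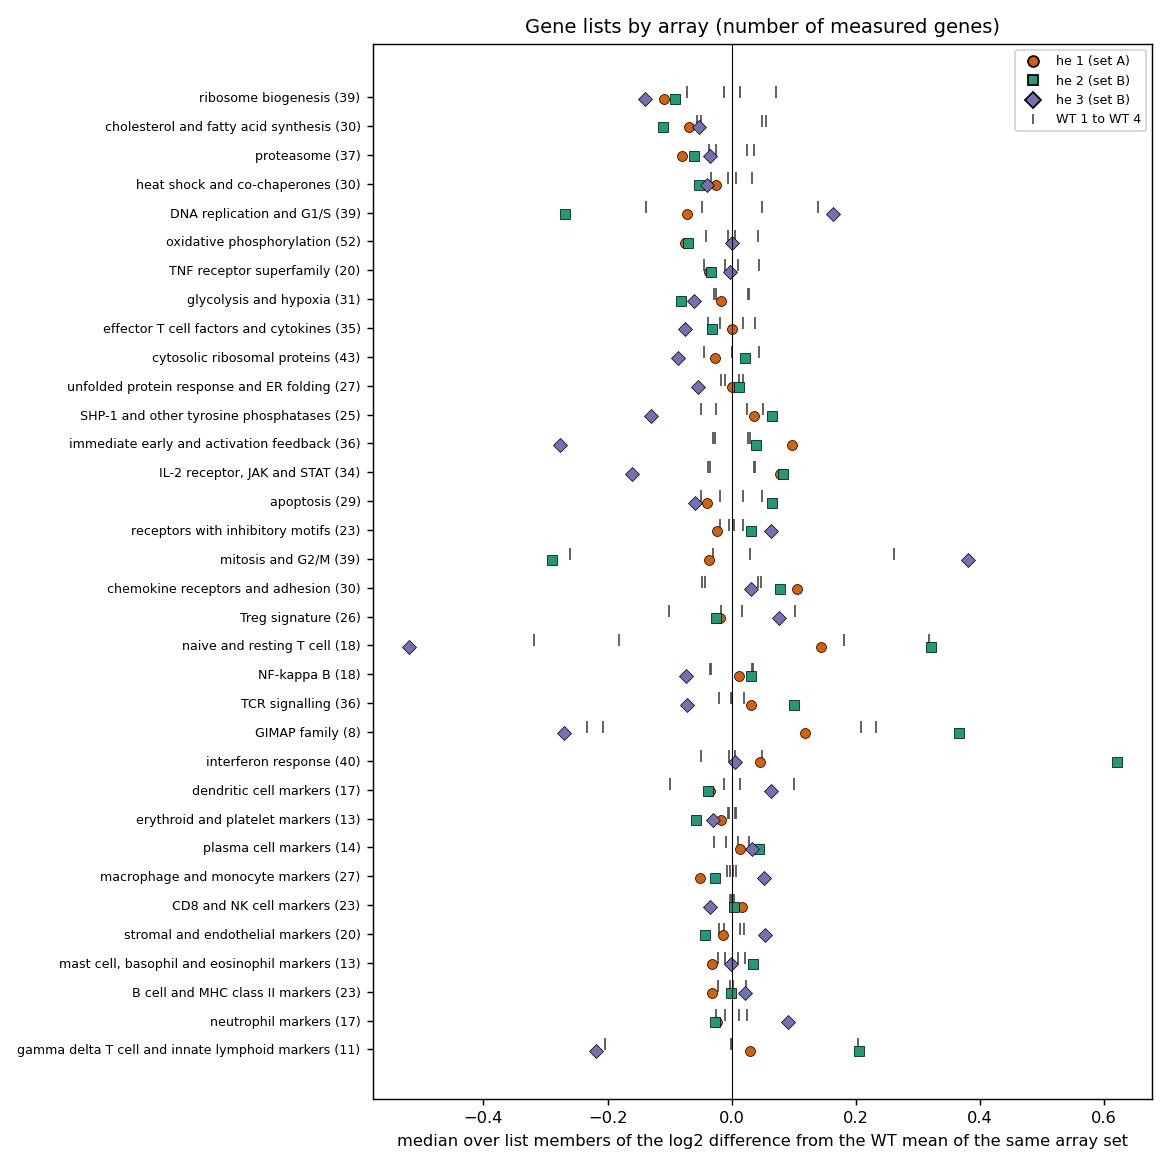
Median over the members of each list of the log2 difference from the WT mean of the same array set, for he 1 (circles), he 2 (squares) and he 3 (diamonds), with the WT arrays as grey ticks; the number of measured genes is in brackets, pathway lists above and marker lists below, and sex-linked genes are left out. The he points lie together on the lower side for ribosome biogenesis (-0.109, -0.091 and -0.140), he 2 stands alone for the interferon response (0.621), and he 2 and he 3 part on naive, GIMAP, G1/S and G2/M genes.

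Effector, homing and survival genes gave isolated differences only. Of 35 effector T cell factors and cytokines 22 were lower (median -0.023), and at 4 of the 35, beside 5.34% of all genes, every he array was below its own WT arrays. These were the cytokine genes Il13 (-0.19 ± 0.06), Il21 (-0.17 ± 0.07), which was below the median level of the array, Ifng (-0.13 ± 0.07, and -0.075 without he 2) and Tnfsf11 (-0.32 ± 0.16). Il13 was at 8.14, 8.18, 8.59 and 8.69 in WT and at 8.10, 8.36 and 8.36 in he, and its difference was -0.06 in set A and -0.28 in set B. Of 30 chemokine receptor and adhesion genes 21 were higher (median 0.026), but without he 2 14 were higher and 16 lower (median -0.013). The inflammatory chemokine receptor Ccr1 was at 7.84, 7.45, 7.27 and 7.16 in WT and 7.89, 7.80 and 7.47 in he (0.35 ± 0.12). Its other probe set was at -0.0016. Ccr2 differed by 0.26 ± 0.12 and Ccr8 by 0.23 ± 0.10 (0.12 without he 3). In each of those 3 receptors, as in Itgb7, the he arrays were above both WT arrays of their sets, which is 4 of the 30 beside 2.72% of all genes. In Cx3cr1 they were below both (-0.11 ± 0.05), which is 1 of the 30 beside 5.34%. Ccr1 and Ccr8 were below the median level of the array of 7.64. The thymic and gut homing receptor Ccr9 had he 2 and he 3 far apart instead, at 9.58 and 7.56. Of 20 TNF receptor family genes 16 were lower (median -0.031). Among 29 apoptosis genes, split 15 higher to 14 lower, the pro-death Bad differed by -0.20 ± 0.06 and the anti-death Bcl2l1 by -0.19 ± 0.07, whose other probe sets gave 0.013 to 0.16. Immediate early and activation feedback genes, 15 higher and 21 lower of 36 (31 lower with no normalisation and 27 with median centring), were at a median of -0.277 in he 3 beside 0.097 in he 1 and 0.039 in he 2. The lists for the unfolded protein response (16 of 27 lower), glycolysis and hypoxia (21 of 31 lower) and NF-kappa B (11 of 18 higher, 7 with no normalisation) had medians of -0.017, -0.024 and 0.031.

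Markers of other cell types that such a preparation could hold were compared as well. The 10 marker lists had medians of -0.022 to 0.044. Of 23 B cell and MHC class II genes 13 were higher, and their summed level was 4612 to 6675 in WT and 4502 to 7290 in he (intensity). Of 14 plasma cell genes 7 were higher and 7 lower, with sums of 7420 to 9900 in WT and 7942 to 9755 in he, and Jchain, the joining chain of secreted antibodies, was at 7.03 to 7.11 in WT and 7.04 to 7.21 in he, against 9.82, 7.96 and 10.14 in me. Of 17 neutrophil genes 9 were higher (sums 2435 to 2723 and 2447 to 2953), and of 27 macrophage and monocyte genes 14 were higher, 11 with no normalisation. The macrophage and monocyte sums were 12153, 11334, 12868 and 12532 in WT 1 to WT 4. In he 1 to he 3 they were 12862, 13558 and 13986, each above or below both WT arrays of its set as a sum, here above. A sum weighs bright genes most, and the list median was -0.052 in he 1, -0.027 in he 2 and 0.052 in he 3. Above the WT mean of their set were 11, 10 and 17 of the 27 genes. The markers of gamma delta and innate lymphoid cells followed the pattern of he 2 and he 3, at 0.205 and -0.219. In bulk RNA fewer cells of a type and less RNA per cell cannot be told apart, and the part of other cells in the differences above was not tested.

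Genes next to Ptpn6 on chromosome 6 were also compared. Of the 20 measured genes on either side 18 were higher and 22 lower, with a median of -0.0064, and none had an unadjusted p under 0.05. Pianp, a neuronal membrane protein, was at 8.35, 8.54, 9.57 and 9.17 in WT and at 8.13, 7.99 and 9.16 in he, each he array below its own WT arrays (-0.60 ± 0.28, and -0.26 without he 2). Lrrc23 was the other gene of the 40 with its he arrays outside their WT arrays, on the higher side (0.16 ± 0.09), where 8.28% of all probe sets were outside in either direction. Lag3, an inhibitory receptor of regulatory T cells, differed by -0.11 ± 0.07 and Cd4 lies in the same stretch. Among probe sets with a gene name the sex-linked genes had the largest estimates, 2.04 ± 1.15 for Xist and -1.58 ± 0.93 for Eif2s3y. A probe set without a gene name was at -1.61. The sex pattern was read from Xist and Eif2s3y themselves, so their following WT 2 and WT 4 is no separate result. For Xist, WT 1 and WT 3 were at 11.03 and 11.38 beside 11.17 to 11.46 in he.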

How the data were processed

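Per the deposited table, the authors gave 1 linear intensity per probe set and array for 10 Affymetrix arrays; how it was summarised and scaled is not stated in what was used here. The medians of the 7 arrays compared were 148 to 185. Of 45101 probe sets, 64 controls were left out. Values were transformed as log2(intensity + 32) and quantile normalised over all 10 arrays. The main test was limma 3.58.1 in R 4.3.3 (lmFit, eBayes) on the 7 he and WT arrays, with array set as a block, 4 residual degrees of freedom, and Benjamini-Hochberg adjustment over 45037 probe sets at 0.05. Figures used matplotlib 3.10.9.

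A single gene name was given for 34945 probe sets; 932 had more than 1 and 9160 had no name. A gene was represented by its brightest probe set over the 7 arrays (18193 genes). Genes named were Ptpn6, up to 12 in each direction with the smallest p (called first, then those separated from the WT arrays of their set, at or above the median level, not sex-linked), 6 Treg genes, and up to 3 members per list; Ifit1, Rsad2, Usp18, Mx1, Satb1, Il7r, Mki67, Rrm1, Ccr9, Cd3e and list members outside that rule were chosen after their values were seen. The members and lists were chosen with earlier results of these data known. Of 1044 list entries 932 matched a measured gene, 4 through a synonym. The number of arrays limits the precision. The test was run on simulated data first, where 10 unchanged probe sets were called. Alternatives were other blocks, samples, sex, pseudocounts, scalings, filters, priors, weights, thresholds and left-out arrays.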

Additional observations from a re-analysis of the deposited data

Results flagged for a closer look

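At 2 of 78 probe sets examined 1 WT array stood apart from the other 3 by Dixon's ratio. For 4 values of 1 distribution chance exceeds the limit in about 1 of 20 groups, a larger share than 2 of 78. The WT arrays come from 2 sets that differ, so that rate need not hold here. Mx1 was highest in WT 4, at 8.51 against 7.71 to 7.80, with a ratio of 0.888. Psmd12 was lowest in WT 1, at 10.50 against 10.58 to 10.59, with a ratio of 0.876.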

How the results depend on the processing

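No probe set passed under any of 25 alternatives, the smallest adjusted p (limma) being 0.670 with array weights. The count at an unadjusted p under 0.05, 819 as reported, was 84 without the set block, 134 with all 10 arrays and no block, 232 with bright probe sets alone, 3319 with array weights and 497 with he 1 as the only he array; leaving out 1 array gave 616 (WT 3) to 1895 (he 3), and 1311 without he 2. At Ptpn6 all alternatives kept the sign, with -0.39 to -0.28 at the brighter and -0.65 to -0.34 at the dimmer probe set. With the replicate number as a block in place of the set the smallest adjusted p was 0.895, 666 probe sets were under 0.05 and Ptpn6 was at -0.28; deviations of same-numbered he and WT arrays correlated at 0.94, -0.72 and 0.73, signs that follow the array sets, so they do not show whether the numbers pair samples, and the labels name no pairing. Among the 78 probe sets followed through these alternatives, signs turned at 5 genes near 0 or sex-linked. Kdm5d was at 0.028 with sex fitted. Cd4 was at 0.059 with sex fitted, 0.043 with female-pattern arrays, 0.037 within set B and -0.16 to 0.037 over left-out arrays. Foxp3 was at -0.027 with no normalisation, -0.0074 with median centring and -0.0036 to 0.079 over left-out arrays. Over left-out arrays Tnfrsf18 ran from -0.045 to 0.013 and Il2ra from -0.0085 to 0.17. Genes outside those probe sets turned sign too when 1 array was left out. Without he 2, Ccr9 was at -0.15, Satb1 at -0.24, Il7r at -0.051 and Rrm1 at 0.13. Mki67 was at -0.18 without he 3, and Cd3e at -0.018 without WT 1. The cause was not tested. Of 46 separated list members named by the rule 17 moved by over 1.5 times without 1 array. Their signs could not turn when 1 array was left out, because of the separation by which they were selected. Of 910 list medians under alternatives 803 moved by less than the SD of the list's 3 he medians and 107 by more. That SD is wide where the he arrays disagree, so the count does not show that the medians were stable. The interferon list, with an SD of 0.344, counted as unmoved without he 2, though its median went from 0.214 to 0.040. Only 1 he array in set A, and 2 unlike ones in set B, limit every value.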
